A study of Mus musculus with 9 samples.

Results

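Tiamulin and lefamulin were set directly against each other in Hepa1-6, a mouse hepatoma line used as a model of HCC. All 6 drug-treated libraries of the 9 in the series entered this comparison (tiamulin 1 to 3 and lefamulin 1 to 3), and the 3 control libraries are shown beside them. Every gene with enough counts for a test was a member, which gave 14510 of the 56748 genes listed. Both drugs were given at 37 µg/ml for 2 days, and the control cells are called untreated in the sample labels, while the methods of the study describe a vehicle control. All 3 groups were the same unedited cell line grown in culture, with no host tissue, and the dose was matched by mass and not by mole. Nothing in the labels says that the 3 libraries of a group came from separate cultures, so the p-values measure the spread between these libraries, which may be technical.

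Pleuromutilins are antibiotics that bind the peptidyl transferase centre of the large subunit of the bacterial ribosome and stop peptide bond formation. Tiamulin is a veterinary drug and lefamulin was developed for people. The 2 compounds share the tricyclic mutilin core and differ in the thioether-linked side chain that extends from it: tiamulin carries a flexible diethylaminoethyl thioether, whereas lefamulin carries an amino- and hydroxy-substituted cyclohexyl thioether. Mammalian mitochondria hold ribosomes of bacterial descent, which translate the few mRNAs of the mitochondrial genome. With 1 pair of compounds at 1 dose and 1 time, a difference between the groups is a difference between these compounds as given here.

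Library totals of the 6 drug-treated samples ran from 15568887 to 17121741 counts. The defining hepatocyte and hepatoma markers Alb, Afp, Trf and Hnf4a were all abundant, while Ttr and Serpina1a had at most 3 counts in every library. Summed hepatocyte markers came to 2444 to 2570 CPM (depth-normalised read count, each gene's counts scaled to its library's total) under lefamulin and 1958 to 2127 CPM under tiamulin, and 3 of the 8 tested were significantly higher under lefamulin. Blood markers summed to 14.2 to 19.8 CPM under lefamulin and 17.1 to 22.5 CPM under tiamulin, with Cd3e, Adgre1 and Hbb-bs at 0 throughout. Library tiamulin 2 stood apart from tiamulin 1 and 3. Its deviation from the group mean followed the GC content of the genes (Spearman correlation across 10313 genes 0.694, against -0.533 and -0.577 in tiamulin 1 and 3). Deviations within a group sum to 0, so its 3 values are not independent. Control libraries 1, 2 and 3 had 0.493, -0.492 and 0.026, and those of lefamulin 0.184, -0.144 and -0.061. The share of counts in mitochondrially encoded genes was 2.00% in tiamulin 2, against 2.76% and 2.81% in tiamulin 1 and 3. Counts without it are given with the main lists, and for the other lists together at the end.

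The 2 drugs left few genes with a large difference between them. At an adjusted p below 0.05 and |log2(fold change)| above 1, 33 genes were DEGs, or 0.227% of those tested. Of these, 12 were higher under tiamulin (0.0827%) and 21 were higher under lefamulin (0.145%). The same fit called 219 DEGs (1.51%) for lefamulin against control and 259 (1.78%) for tiamulin against control. Without the fold threshold, 711 genes (4.9%) separated the drugs, of which 413 (2.85%) were higher under tiamulin and 298 (2.05%) were higher under lefamulin. The differences were mostly small: the median absolute log2 fold change was 0.39 over the 413 genes and 0.36 over the 298, and 74 and 66 of them, respectively, differed more than 1.5-fold. With libraries 1, 2 and 3 of both drugs set side by side, normalised values of 3841 genes (26.5%) did not overlap. These held all of the 413 and all of the 298 genes, so a lack of overlap adds no support to a call.

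**Figure D1:**
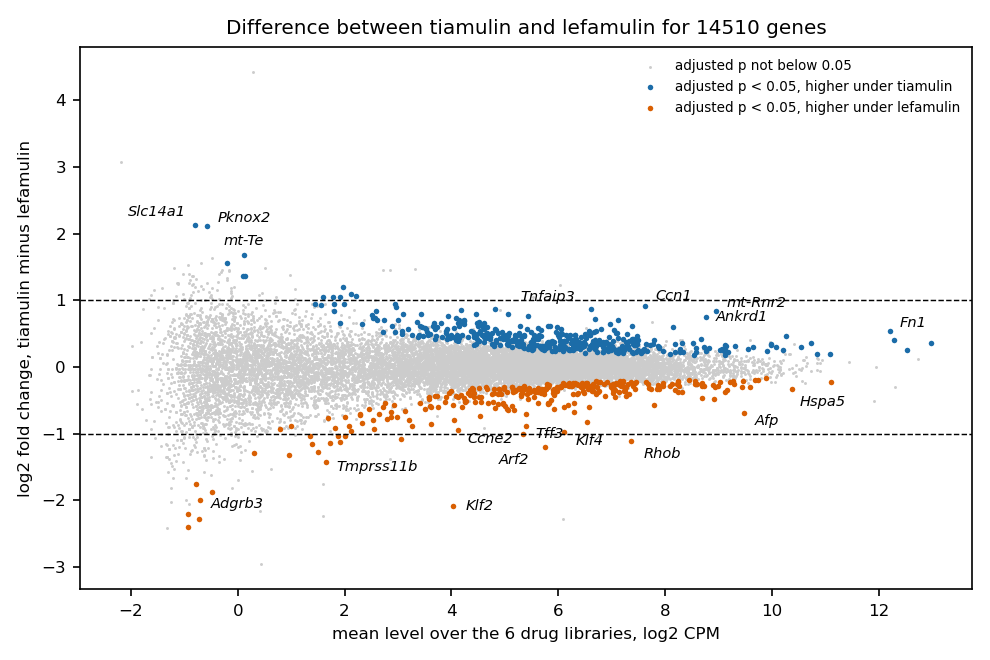
Log2 fold change of tiamulin against lefamulin (vertical axis) by mean level over the 6 drug libraries in log2 CPM (horizontal axis) for the 14510 tested genes; coloured points mark the 413 genes higher under tiamulin and the 298 higher under lefamulin. Most genes lie close to 0 at every level, and Klf2, Arf2 and Rhob stand out below the cloud.

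For most genes the data bounded the difference rather than leaving it open. The 95% interval of the log2 fold change lay within 2-fold in either direction for 12021 genes (82.8%) and within 1.5-fold for 9584 (66.1%). Among the 9071 genes with at least 10 CPM under both drugs, these numbers were 9025 (99.5%) and 8510 (93.8%). The number of significant genes depended on single libraries. It ran from 204 without lefamulin 3 to 1309 without tiamulin 2, and 100 of the 413 and 59 of the 298 genes remained significant in each of the 9 fits that left out 1 library. Across the 9 such fits the DEGs numbered 14 to 46. Rhob, Arf2, Klf2 and Ptgs1 remained DEGs in all of them. Tff3, Hr, Pilra, Purg, Cdsn and 4930422I22Rik kept an adjusted p below 0.05 in all of them (edgeR quasi-likelihood test), but their |log2(fold change)| fell below 1 in at least 1, to 0.96 for 4930422I22Rik and 0.99 for Purg and Cdsn, with log2 fold changes of -0.84 for Tff3, -0.89 for Hr and -0.93 for Pilra.

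The genes of lowest adjusted p that were higher under lefamulin were Rhob, Arf2 and Klf2. Rhob, a small GTPase that acts on actin and endosomal traffic, had 3420, 3781 and 3673 counts under lefamulin, 1658, 1798 and 1665 under tiamulin, and 742, 721 and 746 in control. Every lefamulin library lay above every tiamulin library, and every tiamulin library above every control. Levels were 224 ± 4.77 CPM under lefamulin and 104 ± 7.58 CPM under tiamulin (mean ± SD, n = 3 each). The level was 2.16-fold higher under lefamulin (log2 fold change -1.11, SE 0.06, adjusted p = 5.07e-07, edgeR quasi-likelihood test), with a log2 fold change of 2.41 for lefamulin and 1.30 for tiamulin against control. Klf2 is a zinc finger transcription factor best known from endothelium, where it responds to flow. Lefamulin libraries 1, 2 and 3 had 25.6, 27.1 and 26.4 CPM, those of tiamulin 5.84, 7.68 and 5.18 CPM, and those of control 3.06, 1.8 and 2.23 CPM. The means were 26.4 ± 0.777 CPM under lefamulin and 6.24 ± 1.3 CPM under tiamulin. Thus Klf2 showed the same order of groups as Rhob, with a wider gap: 4.23-fold higher under lefamulin (log2 fold change -2.08, SE 0.15, adjusted p = 6.74e-06, edgeR quasi-likelihood test).

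Arf2 had a different pattern. This ADP-ribosylation factor, a GTPase of vesicle transport at the Golgi, had 1121, 1279 and 1254 counts under lefamulin, 552, 542 and 523 under tiamulin and 574, 620 and 588 in control. It was 2.3-fold higher under lefamulin than under tiamulin (log2 fold change -1.20, SE 0.07, 95% interval -1.36 to -1.04, adjusted p = 1.14e-06, edgeR quasi-likelihood test). Against control the log2 fold change was 1.14 under lefamulin and -0.06 under tiamulin, so the tiamulin libraries lay near control. Of the 30 ARF and ARL GTPases tested, Arf2 was the only one significantly higher under lefamulin in the full fit, and Gbf1, the exchange factor that activates ARFs at the Golgi, was the only list member higher under tiamulin (log2 fold change 0.35); the median over the list was 0.03. Over all tested genes 2.85% were higher under tiamulin and 2.05% under lefamulin. Gbf1 lost its call without any 1 of the lefamulin libraries, and 4 members were higher under tiamulin without tiamulin 2.

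Klf4 and Klf7, of the same family, were also higher under lefamulin. Klf4, a factor of epithelial differentiation, had 1414, 1496 and 1509 counts under lefamulin, 679, 883 and 713 under tiamulin and 677, 547 and 597 in control (log2 fold change -0.98, adjusted p = 0.000159, edgeR quasi-likelihood test). Klf7 was lower under tiamulin by less (log2 fold change -0.53), whereas Klf12, a repressor of the family, was higher (log2 fold change 0.45) until any 1 lefamulin library was left out. In all, 3 of the 12 Krüppel-like factors tested were higher under lefamulin and 1 was higher under tiamulin, with a median log2 fold change of -0.10, against 0.0031 over all genes, of which 2.05% were higher under lefamulin and 2.85% under tiamulin. Among 10 genes named from the KLF2 and MEF2 programme of endothelium, 3 were higher under lefamulin (Klf2, Klf4 and Rhob) and 1 was higher under tiamulin (Cited2, a transcriptional coregulator, log2 fold change 0.41), with a median of -0.05. The 3 are genes already described above, on a list chosen with earlier results known, so their count adds no separate support. Endothelial markers summed to 12.6 to 14.0 CPM under lefamulin and 9.34 to 10.8 CPM under tiamulin, with Tek and Cdh5 at 3 counts or fewer in every library. Their part in the result was not tested.

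The stretch of 250 bases before the start of Klf2 (RefSeq, GRCm38.p6) is shown because this gene had the widest called gap among those with more than 10 CPM. It lies just before the annotated start of the gene, and the capitals mark the motif CTANNNNTAG, which holds the core that MEF2 factors bind.
Klf2 (chr8:72318812-72319061, plus strand): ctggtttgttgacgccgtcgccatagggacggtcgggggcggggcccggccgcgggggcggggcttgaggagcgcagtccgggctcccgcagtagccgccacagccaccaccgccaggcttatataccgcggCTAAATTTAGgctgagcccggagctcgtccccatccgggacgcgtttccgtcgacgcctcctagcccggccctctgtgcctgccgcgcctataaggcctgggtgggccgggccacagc
Motifs were searched on both strands in windows of 300 bases, from 250 before to 50 after each start, for 7 genes, of which 6 had a window and Ccn2 had none. CTANNNNTAG stood in 3.69% of the 32851 windows of that length, and of the 6 genes Klf2 alone had it. The windows of Rhob, Arf2 and Ankrd1 held CCAAT, which 37.4% of windows had. These matches are descriptions of the sequence and not measured binding sites.

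Among the remaining DEGs higher under lefamulin, Tff3, a secreted trefoil peptide of mucosal surfaces, was the most abundant and had 922, 840 and 863 counts under lefamulin, 483, 323 and 527 under tiamulin and 585, 689 and 758 in control (log2 fold change -1.01, adjusted p = 0.00107, edgeR quasi-likelihood test). Control libraries lay between those of the drugs, and both drugs differed significantly from control in opposite directions. Ptgs1, which encodes cyclooxygenase-1, had 71, 79 and 71 counts under lefamulin, 33, 36 and 33 under tiamulin and 23, 23 and 24 in control. Its difference (log2 fold change -1.14, adjusted p = 0.00421, edgeR quasi-likelihood test) held in every fit leaving out 1 library, but not in limma on log2(FPKM + 0.1) (adjusted p = 0.0931, limma). Tmprss11b, a membrane-anchored serine protease, had 64, 94 and 65 counts under lefamulin, 36, 23 and 25 under tiamulin and 13, 11 and 6 in control, and had an adjusted p of 0.0633 without lefamulin 2 against 0.00784 with all libraries (edgeR quasi-likelihood test). Hr, the nuclear receptor corepressor hairless, had 192, 166 and 187 counts under lefamulin against 84, 112 and 67 under tiamulin (log2 fold change -1.07). Pilra, an inhibitory immunoglobulin-like receptor, had 73, 86 and 81 counts against 34, 48 and 37 (log2 fold change -1.03). Neither gene's libraries overlapped between the drugs, and both calls held in all fits leaving out 1 library, although Hr was not called by limma on log2(FPKM + 0.1) (adjusted p = 0.0734, limma).

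Some of these genes had low counts. Olfr1393, an olfactory receptor gene, had 13, 13 and 17 counts under lefamulin and 1, 2 and 5 under tiamulin (log2 fold change -2.40). Rgs1, a regulator of G protein signalling, had 13, 13 and 16 against 2, 1 and 6 (log2 fold change -2.21). Klb, the coreceptor beta-Klotho of endocrine FGFs, had 18, 17 and 20 against 6, 1 and 8, with 7, 5 and 9 in control (log2 fold change -1.88). In each of these 3 genes the groups did not overlap, but the call was lost in several fits leaving out 1 library, with adjusted p up to 0.111, 0.153 and 0.147, respectively (edgeR quasi-likelihood test). Adgrb3, an adhesion G protein-coupled receptor, had 15, 17 and 16 counts under lefamulin, 6, 2 and 4 under tiamulin and 35, 23 and 38 in control. Both drugs lay below control, tiamulin further, and the call was lost without any 1 of the lefamulin libraries (adjusted p up to 0.0809, edgeR quasi-likelihood test).

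The other named protein-coding DEGs of this direction also lost their call without single libraries. Ppbp, a platelet chemokine precursor, had 64, 66 and 45 counts under lefamulin against 31, 14 and 35 under tiamulin and 34, 30 and 51 in control (log2 fold change -1.16). Its call was lost in 8 of the 9 fits leaving out 1 library and in both limma fits. Zswim7, a protein of recombinational repair, had 102, 75 and 83 against 55, 34 and 41 (log2 fold change -1.03), and lost its call without lefamulin 1 or 3. 6430548M08Rik had 39, 47 and 50 against 19, 18 and 18, with 25, 12 and 21 in control (log2 fold change -1.32), and lost it without lefamulin 2 or 3. The highest adjusted p among the fits leaving out 1 library was 0.158 for Ppbp, 0.112 for Zswim7 and 0.0854 for 6430548M08Rik (edgeR quasi-likelihood test). Gm15764, Gm41077, ENSMUSG00000120410 and ENSMUSG00000120539 are annotated as lncRNAs, with log2 fold changes of -1.30, -1.04, -2.27 and -1.28. Gm15764 had 27, 31 and 27 counts under lefamulin, 10, 13 and 12 under tiamulin and 22, 25 and 35 in control. ENSMUSG00000120410 had 14, 17 and 18 counts with lefamulin, 3, 6 and 1 with tiamulin and 13, 10 and 8 in control. For ENSMUSG00000120539 these were 50, 65 and 81, then 28, 24 and 30, and 38, 24 and 43. Tiamulin was below lefamulin in every library of these 3, and 1 control library of Gm15764 lay above its lefamulin libraries. All 4 lost their call without 1 or more libraries, ENSMUSG00000120539 only without lefamulin 3 (adjusted p = 0.0787, edgeR quasi-likelihood test).

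The DEGs higher under tiamulin were all of low abundance. Cdsn, the adhesion protein corneodesmosin, had 99, 109 and 84 counts under tiamulin, 37, 52 and 45 under lefamulin and 53, 53 and 53 in control (log2 fold change 1.10, adjusted p = 0.00435, edgeR quasi-likelihood test). Purg, a single-stranded nucleic acid binding protein of the Pur family, had 82, 76 and 94 counts under tiamulin, 36, 40 and 43 under lefamulin and 57, 55 and 67 in control (log2 fold change 1.05, adjusted p = 0.00418, edgeR quasi-likelihood test). For the lncRNA 4930422I22Rik the counts were 94, 80 and 95 under tiamulin, 44, 46 and 25 under lefamulin and 63, 85 and 84 in control (log2 fold change 1.20). In all 3 genes the mean of the control libraries lay between those of the drugs. Acvr2b, a type II activin receptor, had 87, 114 and 111 counts under tiamulin against 37, 64 and 45 under lefamulin and 103, 87 and 77 in control (log2 fold change 1.07), and lost its call without lefamulin 1 or 3. Cfap74, a ciliary and flagellar protein, had 60, 80 and 60 against 40, 27 and 28, with 45, 47 and 50 in control (log2 fold change 1.05), and lost it without lefamulin 2 or 3. The highest adjusted p in these fits was 0.0679 for Acvr2b and 0.102 for Cfap74 (edgeR quasi-likelihood test).

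Pknox2, a homeobox transcription factor, had 21, 17 and 16 counts under tiamulin, 5, 3 and 4 under lefamulin and 36, 17 and 18 in control (log2 fold change 2.11). Slc14a1, a urea transporter, had 19, 15 and 12 counts under tiamulin and 6, 1 and 3 under lefamulin (log2 fold change 2.13). Unc13c, a priming factor of synaptic vesicles, had 24, 24 and 29 against 11, 6 and 12, with 24, 27 and 30 in control (log2 fold change 1.37), and the pseudokinase gene Nrbp2 had 21, 22 and 21 against 10, 7 and 4, with 14, 13 and 9 in control (log2 fold change 1.56). None of these 4 genes overlapped between the drugs, and in each the lefamulin libraries were the low ones. Their calls were lost in 4, 7, 7 and 9 of the 9 fits leaving out 1 library, respectively, so Nrbp2 was called with all libraries only. The lost fits included those without each lefamulin library, with adjusted p up to 0.109, 0.175, 0.138 and 0.156, respectively (edgeR quasi-likelihood test). The last 3 DEGs were transfer RNAs of the mitochondrial genome, described with that genome.

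**Figure D2:**
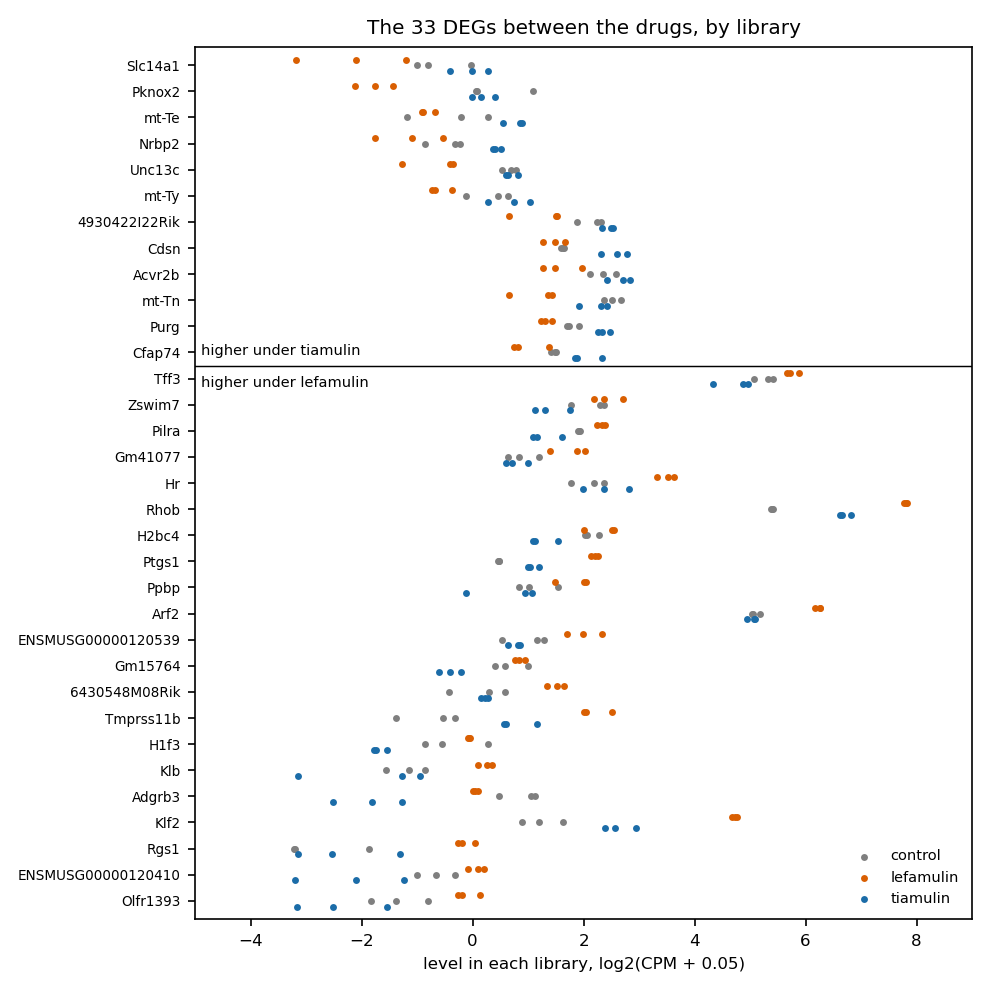
Level of the 33 DEGs in each of the 9 libraries as log2(CPM + 0.05) (horizontal axis), 1 row per gene and 1 point per library, coloured by group, with the genes higher under tiamulin above the line and those higher under lefamulin below it. Rhob, Arf2, Tff3 and Klf2 lie furthest right, and most of the other genes lie within a few log2 units of 1 CPM.

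Among genes higher under tiamulin, Ccn1 and Ankrd1 had the lowest adjusted p. Both are known targets of YAP, the transcriptional coactivator of the Hippo pathway, as is Ccn2. Ccn1 encodes a secreted matricellular protein. It had 4013, 4530 and 4218 counts under tiamulin, 2035, 2256 and 2364 under lefamulin and 2051, 1920 and 1973 in control, a 1.89-fold difference between the drugs (log2 fold change 0.92, SE 0.07, adjusted p = 6.74e-06, edgeR quasi-likelihood test). Ankrd1, a nuclear ankyrin repeat cofactor, had 9354, 8111 and 9462 counts under tiamulin, 4934, 5470 and 5350 under lefamulin and 3864, 4103 and 3972 in control (log2 fold change 0.75, adjusted p = 8.52e-06, edgeR quasi-likelihood test). Ccn2, the connective tissue growth factor, had 5419, 5510 and 5971, 3483, 3816 and 3618, and 2899, 2435 and 2906 counts in the same order (log2 fold change 0.61, adjusted p = 0.000146, edgeR quasi-likelihood test). Tiamulin libraries were highest throughout, and lefamulin libraries lay nearer to control: against control, the log2 fold change of Ccn1 was 1.19 under tiamulin and 0.27 under lefamulin.

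Of 22 tested genes listed as targets of SRF and YAP or as actin components, 10 were higher under tiamulin and 0 were higher under lefamulin, with a median log2 fold change of 0.20, where 2.85% of all tested genes were higher under tiamulin and 2.05% under lefamulin. These shares are the background of each list count from all 9 libraries. In the fits without tiamulin 2 they were 4.93% and 3.86%, in those without 1 lefamulin library 0.828% to 1.00% and 0.526% to 0.619%, and with GC and length offsets 6.78% and 6.39%, so counts from those fits are to be read against these. Beyond those named, Axl, a receptor tyrosine kinase, was higher by 0.36 on the log2 scale, and Actg1, F3, Tpm1, Cnn2, Ajuba and Amotl2 made up the rest. The number was 6 without lefamulin 3 and 12 without tiamulin 2 or with GC and length offsets. Rhob, whose product acts on the same cytoskeleton, differed in the opposite direction. The 250 bases before the start of Ccn1 and Ankrd1 (RefSeq, GRCm38.p6) are shown as the genes of lowest p in this direction, with capitals marking GGAATG or its reverse complement, the core bound by the TEAD partners of YAP.
Ccn1 (chr3:145649986-145650235, minus strand): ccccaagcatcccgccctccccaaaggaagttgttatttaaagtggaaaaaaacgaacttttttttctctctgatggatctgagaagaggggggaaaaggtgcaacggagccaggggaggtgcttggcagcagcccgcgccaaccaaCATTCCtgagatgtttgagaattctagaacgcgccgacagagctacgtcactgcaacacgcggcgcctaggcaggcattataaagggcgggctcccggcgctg
Ankrd1 (chr19:36119845-36120094, minus strand): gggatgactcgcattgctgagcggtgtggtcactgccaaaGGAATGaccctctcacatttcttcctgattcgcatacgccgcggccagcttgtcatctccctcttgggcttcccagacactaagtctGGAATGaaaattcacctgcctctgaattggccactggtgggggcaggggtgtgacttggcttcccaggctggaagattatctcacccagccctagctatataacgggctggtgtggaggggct
The motif GGAATG stood in 14.7% of windows of 300 bases. Among the 6 genes with a window, Ccn1 held it 1 time and Ankrd1 2 times. The CArG box bound by SRF was searched in the same windows, was found in none of the 6 genes, and stood in 1.63% of all windows. Nothing on binding was measured here.

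Of the cell matrix genes, those that separated the drugs were higher under tiamulin, and most of the list did not pass the test. Fn1, which encodes fibronectin, had 85471, 102322 and 87610 counts under tiamulin, 61132, 62765 and 62720 under lefamulin and 90853, 83656 and 91497 in control (log2 fold change 0.54, adjusted p = 0.000948, edgeR quasi-likelihood test). The basement membrane genes Nid1 and Col8a1 were higher by 0.42 and 0.41 on the log2 scale, and Timp3, a metalloproteinase inhibitor, was higher by 0.38. For Fn1, Nid1 and Col8a1, lefamulin lay below control (log2 fold change -0.40, -0.57 and -0.48) and tiamulin lay closer to it (0.14, -0.15 and -0.08). Altogether 8 of 61 integrin and matrix genes were higher under tiamulin and 0 were higher under lefamulin (median 0.12), and 21 of the 61 had the sign of a higher level under lefamulin. Without tiamulin 2 there were 15 of 63, and without any 1 lefamulin library 5, while the median was 0.073 without tiamulin 2 and 0.032 with GC and length offsets. Fibroblast markers summed to 1157 to 1209 CPM under lefamulin and 1057 to 1149 CPM under tiamulin, nearly all of it Dcn, with Acta2, Col1a2 and Col3a1 at 3 counts or fewer in every library. Of the 4 fibroblast markers tested, 1 was higher under tiamulin: Pdgfra, a receptor for platelet-derived growth factor, with 523, 461 and 531 counts against 293, 330 and 358 under lefamulin (log2 fold change 0.60). The part of these markers in the result was not tested.

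Several regulators with low p-values were also higher under tiamulin. Tnfaip3 encodes A20, a ubiquitin-editing inhibitor of NF-κB signalling. It had 2164, 2116 and 2008 counts under tiamulin, 1091, 1206 and 1089 under lefamulin and 1125, 1241 and 1138 in control (log2 fold change 0.87, adjusted p = 1.41e-05, edgeR quasi-likelihood test), so that lefamulin lay at the control level. Igf2bp1, an oncofetal RNA-binding protein, had 2462, 2677 and 2386 counts under tiamulin, 1521, 1543 and 1660 under lefamulin and 3096, 2936 and 3177 in control. Here it was lefamulin that lay furthest from control (log2 fold change -0.85). Ampd3, an AMP deaminase, differed by 0.79 on the log2 scale, the lncRNA Mirt1 by 0.76 and Calcoco1, an autophagy receptor and coactivator, by 0.70. The scaffold gene Frmd4b and the caveolar gene Cavin2 differed by 0.54 and 0.51. All of these calls held in each of the 9 fits leaving out 1 library.

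**Figure D3:**
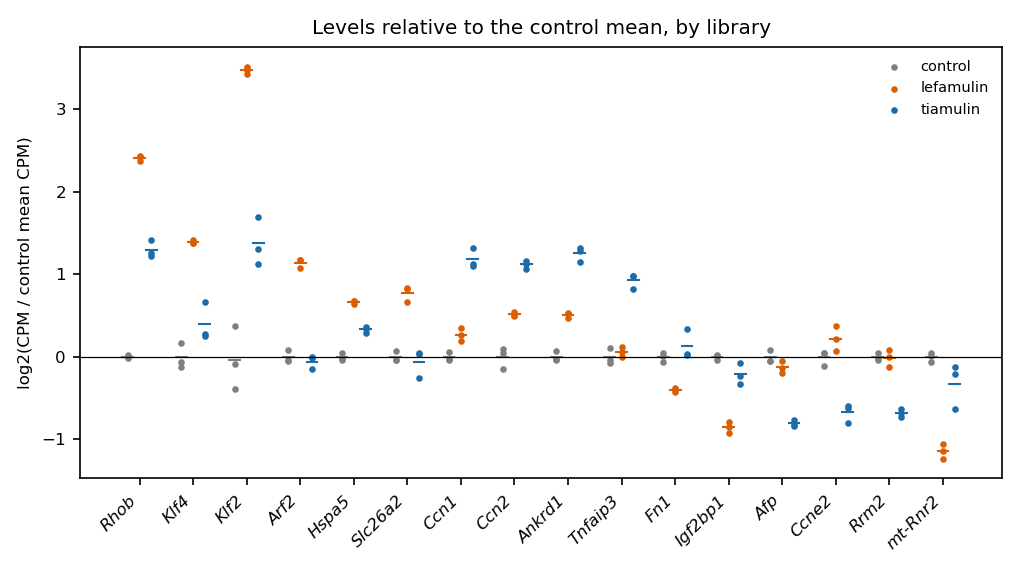
Level of selected genes in each library relative to the mean of the control libraries, as log2(CPM / control mean CPM) on the vertical axis; points are libraries, coloured by group, and short lines are group means. Klf2, Rhob, Klf4 and Arf2 lie higher under lefamulin, and Ccn1, Ccn2, Ankrd1 and Tnfaip3 lie higher under tiamulin, where Tnfaip3 and Arf2 have 1 drug at the control level.

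The genes of DNA replication that separated the drugs were all higher under lefamulin, and most of the list did not pass the test. Rrm2, the regulatory subunit of ribonucleotide reductase, had 1397, 1617 and 1676 counts under lefamulin and 1001, 1002 and 995 under tiamulin (log2 fold change -0.67, adjusted p = 0.000117, edgeR quasi-likelihood test). Ccne2, a cyclin E that drives entry into S phase, had 768, 901 and 990 against 502, 430 and 529 (log2 fold change -0.89, adjusted p = 0.000146, edgeR quasi-likelihood test). Ccne1 and the origin licensing factor Cdc6 were lower by -0.62 and -0.60 on the log2 scale. In all, 8 of 44 S phase genes were higher under lefamulin (among the rest Tyms, E2f8 and Rrm1) and 0 were higher under tiamulin, with a median of -0.16. Of 46 mitotic genes, 5 were higher under lefamulin and 0 under tiamulin (median -0.08), among them Birc5, the survivin of the chromosomal passenger complex (-0.40), Ccna2 (-0.33), Ccnb1 (-0.30) and Top2a (-0.23). The S phase number was 4 without any 1 lefamulin library and 13 without tiamulin 2, and the mitotic number was 1 without lefamulin 3 and 10 without tiamulin 2. In these bulk samples, fewer cells of a cycle phase and less RNA per cell cannot be told apart.

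Replication-dependent histones, which are made mainly in S phase, passed the count filter for 10 of 66 genes in the file. Of these, 3 were higher under lefamulin: H2bc4 with 89, 66 and 95 counts against 34, 46 and 36, and 70, 82 and 74 in control (log2 fold change -1.13), H1f3 with 14, 15 and 15 against 4, 4 and 5 (-1.76), and H2bc21 (-0.45). The median of the 10 was -0.49. H2bc4 lost its call without lefamulin 3 (adjusted p = 0.0545, edgeR quasi-likelihood test) and the list had 0 called then, while H1f3 had an adjusted p of up to 0.137. Histone genes share near-identical sequence, so their counts may be split between copies and are uncertain. On the side of arrest, 4 of 30 p53 targets and CDK inhibitors were higher under tiamulin and 0 under lefamulin (median 0.02): Gadd45b (0.57), Cdkn2b, the inhibitor p15 (0.50), Gadd45a (0.42) and Plk2 (0.31). This number was 2 without any 1 lefamulin library, and 8 against 1 without tiamulin 2.

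The plasma protein genes of the hepatocyte that separated the drugs were all higher under lefamulin, and most of the list did not pass the test. Afp, the fetal albumin homologue used as a marker of HCC, had 14596, 13998 and 14285 counts under lefamulin, 8884, 9063 and 9250 under tiamulin and 16167, 15977 and 18318 in control (log2 fold change -0.68, adjusted p = 1.41e-05, edgeR quasi-likelihood test). Its libraries did not overlap, and tiamulin was the group furthest from control (log2 fold change -0.81). The haem carrier Hpx was lower by -0.40, Apob, the structural protein of lipoproteins, by -0.37 and the fibrinogen chain Fgb by -0.28 on the log2 scale. Together 6 of 33 such genes were higher under lefamulin and 0 under tiamulin (median -0.18). This number was 1 without lefamulin 2 and 9 without tiamulin 2, and 12 of the 33 genes had the sign of a higher level under tiamulin. The drop in summed hepatocyte markers given above includes Afp and Apob themselves. Of 42 genes listed as liver transcription factors, 4 were higher under tiamulin (among them Rora 0.48, Rxrb 0.42 and Zhx2 0.34) and 1 was higher under lefamulin, with a median of 0.15. The latter was Afp itself, which the list holds although it is no transcription factor. The tiamulin number fell to 1 without any 1 lefamulin library, and the median was 0.043 without tiamulin 2.

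The integrated stress response acts through ATF4 on genes of amino acid synthesis. Pycr1, the mitochondrial enzyme of proline synthesis, had 420, 472 and 495 counts under tiamulin, 313, 271 and 270 under lefamulin and 192, 213 and 207 in control (log2 fold change 0.67, adjusted p = 0.00276, edgeR quasi-likelihood test). Aldh1l2, of mitochondrial folate metabolism, was higher by 0.44, Cth, of cysteine synthesis, by 0.39 and Gpt2, an alanine transaminase, by 0.38 on the log2 scale. Both drugs lay above control in these genes (Aldh1l2: log2 fold change 1.07 under lefamulin and 1.52 under tiamulin). In all, 8 of 27 genes of this response were higher under tiamulin and 0 under lefamulin (median 0.15). The number was 3 without lefamulin 1 or 3, and 10 against 2 without tiamulin 2. Pck2, a mitochondrial enzyme listed with glucose metabolism, was higher under tiamulin as well (0.55).

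Hspa5, the chaperone BiP of the endoplasmic reticulum, had 22653, 24647 and 24249 counts under lefamulin, 18687, 18804 and 20335 under tiamulin and 15993, 16476 and 16152 in control (log2 fold change -0.33, adjusted p = 0.00133, edgeR quasi-likelihood test). Both drug groups lay above control, lefamulin by 0.67 and tiamulin by 0.33 on the log2 scale. Calr (-0.29) and Manf (-0.37) were also higher under lefamulin, whereas Ern1, the sensor IRE1α, was higher under tiamulin (0.40). The list of 30 genes of this compartment and its stress response had 3 higher under lefamulin and 1 higher under tiamulin (median -0.11). Without tiamulin 2 there were 6 higher under lefamulin, and without lefamulin 3 there was 1 in each direction, as Calr and Manf lost their calls. Higher under lefamulin were 2 without control 3, lefamulin 1, lefamulin 2 or tiamulin 1.

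A few lysosomal and autophagy genes were higher under tiamulin. Npc1, which exports cholesterol from lysosomes, had 3069, 3232 and 3118 counts under tiamulin, 2224, 2383 and 2322 under lefamulin and 2374, 2240 and 2325 in control (log2 fold change 0.42, adjusted p = 0.00104, edgeR quasi-likelihood test). Sqstm1, the autophagy receptor p62, had 29363, 33946 and 31052 under tiamulin against 23983, 24857 and 23700 under lefamulin (log2 fold change 0.36). Of 50 lysosomal genes, 4 were higher under tiamulin and 0 under lefamulin (Npc1, Lgmn 0.39, Ctsb 0.22 and Psap 0.22; median 0.05). Of 47 V-ATPase and autophagy genes, 5 were higher under tiamulin and 0 under lefamulin (among them Wipi1 0.38, Atg13 0.32 and Gabarapl1 0.25; median -0.04), although 27 of the 47 had the sign of a higher level under lefamulin. These numbers were 1 and 0 without lefamulin 3, and 1 and 2 without lefamulin 1, while Sqstm1 lost its call without lefamulin 3 alone.

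Few members of the lipid lists passed the test with all libraries. Abca1, which exports cholesterol to apolipoprotein A-I, fell under both drugs. Tiamulin libraries had 101, 122 and 111 counts, lefamulin libraries 224, 164 and 179, and control libraries 1646, 1438 and 1651. The 2 drugs did not overlap, with tiamulin the lower (log2 fold change -0.79, SE 0.14, adjusted p = 0.0058, edgeR quasi-likelihood test), and the call was lost in limma on log2(FPKM + 1) (adjusted p = 0.0722, limma), beside log2 fold changes against control of -2.95 under lefamulin and -3.74 under tiamulin. Of 10 LXR targets, 2 were higher under lefamulin, Abca1 and the desaturase Scd1 (-0.21), and 0 were higher under tiamulin (median -0.21); Scd1 lost its call without any 1 lefamulin library. In sterol synthesis 1 of 20 genes was higher under lefamulin, Hsd17b7 (-0.54; median of the list -0.064), and 16 of the 20 had that sign. Higher under lefamulin were 4 without tiamulin 2 and 6 with GC and length offsets, where 6.39% of all genes were. Among 14 genes of LDL uptake and SREBP2 control, Npc1 was higher under tiamulin and Insig1 was higher under lefamulin (-0.24; median 0.12), a call that Insig1 lost in 7 of the 9 fits leaving out 1 library. Scd1 was the 1 member of 17 fatty acid synthesis genes that differed (median -0.02), and Acot2 (0.49) the 1 of 21 fatty acid oxidation genes (median -0.02). Acot2 lost its call in 8 of the 9 fits leaving out 1 library, with an adjusted p of up to 0.163 (edgeR quasi-likelihood test).

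The RNAs of the mitochondrial genome were examined by kind after their values had been seen, since 3 of its transfer RNAs were DEGs. The genome is transcribed as long precursors that are cut into rRNAs, tRNAs and mRNAs. Both rRNAs were higher under tiamulin. For mt-Rnr2, the large ribosomal RNA, the counts were 11171, 8116 and 12290 under tiamulin, 5242, 5942 and 6163 under lefamulin and 13691, 14008 and 13553 in control (log2 fold change 0.84, adjusted p = 0.000778, edgeR quasi-likelihood test). mt-Rnr1, the small ribosomal RNA, had 3781, 2601 and 3638 counts under tiamulin against 2083, 2254 and 2084 under lefamulin (log2 fold change 0.61, adjusted p = 0.00373, edgeR quasi-likelihood test). Lefamulin was the group furthest from control in both (log2 fold change -1.14 for mt-Rnr2 and -0.68 for mt-Rnr1), and tiamulin 2 was the lowest tiamulin library. Of the mRNAs, 1 of 13 was higher under tiamulin, mt-Co1, a subunit of cytochrome oxidase (0.36), with a median over the 13 of 0.05. That call was lost in 7 of the 9 fits leaving out 1 library. The median was 0.25 without tiamulin 2 and -0.11 without tiamulin 3. Without tiamulin 2, 2 of the mRNAs were higher under tiamulin and 1 under lefamulin, and with GC and length offsets these were 4 and 3.

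Of the 22 transfer RNAs in the file, 10 had enough counts, and 5 of these were higher under tiamulin, with a median log2 fold change of 1.06 over the 10. The 3 DEGs among them are shown as the transcripts whose levels are described, each with its anticodon in capitals (GENCODE M21, GRCm38).
mt-Tn (chrM:5089-5159, minus strand): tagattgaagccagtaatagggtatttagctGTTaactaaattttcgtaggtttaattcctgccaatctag
mt-Ty (chrM:5260-5326, minus strand): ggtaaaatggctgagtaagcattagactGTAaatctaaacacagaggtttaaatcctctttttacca
mt-Te (chrM:14071-14139, minus strand): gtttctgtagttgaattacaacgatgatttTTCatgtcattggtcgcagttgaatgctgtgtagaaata
mt-Tn carries asparagine, and had 81, 60 and 90 counts under tiamulin, 24, 42 and 43 under lefamulin and 88, 109 and 101 in control (log2 fold change 1.06). mt-Ty carries tyrosine, with 19, 26 and 34 counts under tiamulin against 9, 12 and 9 under lefamulin and 23, 15 and 27 in control (1.36). mt-Te carries glutamate, with 29, 29 and 24 against 9, 8 and 8 (1.68) and 20, 14 and 7 in control. The drugs did not overlap in any of the 3, and for mt-Te control 3 lay below the lefamulin libraries. Each call was lost without single libraries, which included lefamulin 1 and 2 for every 1 of them, with adjusted p up to 0.0795, 0.153 and 0.115, respectively (edgeR quasi-likelihood test). mt-Tl1, for leucine, and mt-Tc, for cysteine, differed by 0.94 and 0.95, and mt-Tl1 held in every such fit. Transfer RNAs are short and poorly captured in such libraries, and whether the counting used strand is not given in the sources used here, so that reads from overlapping precursors of the 2 strands cannot be told apart.

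**Figure D4:**
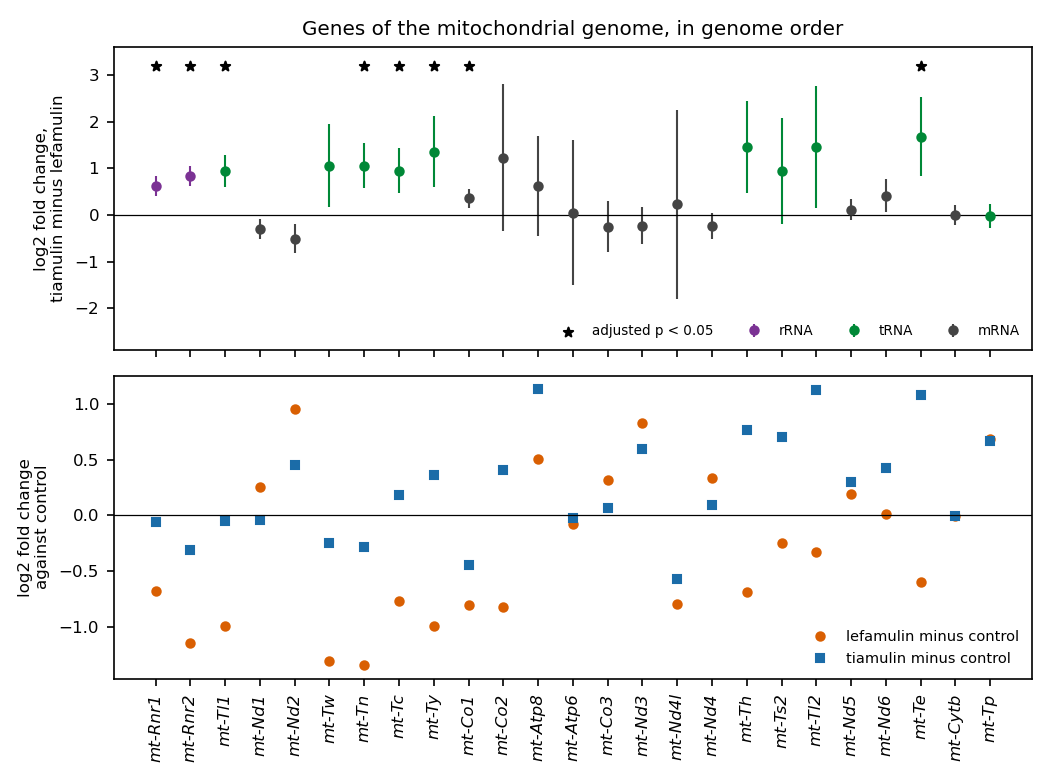
The tested genes of the mitochondrial genome in genome order. The upper panel gives the log2 fold change of tiamulin against lefamulin with 95% intervals as bars, coloured by kind of RNA, with stars at an adjusted p below 0.05, and the lower panel gives the log2 fold change of each drug against the shared control libraries. Both rRNAs, 5 of 10 tRNAs and 1 of 13 mRNAs are starred.

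Few nuclear genes of mitochondrial function passed the test. Of 80 mitochondrial ribosomal proteins, 1 was higher under lefamulin (Mrpl17, -0.26) and 0 under tiamulin, with a median of -0.12 and 54 of the 80 with the sign of a higher level under lefamulin, although 5 were higher under lefamulin without tiamulin 2 or 3 and 0 without any 1 of the control or lefamulin libraries. With GC and length offsets 10 were higher under lefamulin and 1 under tiamulin. Of 79 subunits of oxidative phosphorylation, 2 were higher under lefamulin, cytochrome c (Cycs, -0.41) and an ATP synthase subunit c gene (Atp5g1, -0.44), and 0 under tiamulin (median -0.17, or -0.058 without tiamulin 2 and -0.22 without tiamulin 3), with the sign of a higher level under lefamulin in 67 of the 79. Atp5g1 lost its call without any 1 lefamulin library. Lonp1, the matrix protease, was the 1 of 19 mitochondrial chaperones and proteases that differed (0.28, higher under tiamulin), and lost its call without any 1 lefamulin library. In cytosolic translation, 1 of 82 ribosomal proteins (Rpl7l1, -0.27) was higher under lefamulin, though not without lefamulin 1 or 2, and 3 tRNA synthetases of 23 were higher under tiamulin (Iars 0.23, Lars 0.23 and Qars 0.21) while 1 was higher under lefamulin (Hars, -0.29). None of the synthetases was called without any 1 lefamulin library. Amino acid transporters gave 1 of 18, the cystine transporter Slc7a11 (0.27), whose call was lost in 7 of 9 fits.

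Signalling and immune genes split in both directions. Csf1, the macrophage growth factor, had 2106, 2320 and 1941 counts under tiamulin, 1296, 1290 and 1199 under lefamulin and 2094, 1750 and 1934 in control (log2 fold change 0.73, adjusted p = 0.000605, edgeR quasi-likelihood test). Ccl20 (0.70) and Ccl2 (0.40), chemokines for lymphocytes and monocytes, were also higher under tiamulin, while the neutrophil chemokine Cxcl5 was higher under lefamulin (-0.60), giving 3 against 1 of 33 in this list (median 0.03), and 1 against 1 without lefamulin 2 or 3. Of 35 immediate early and MAPK feedback genes, 4 were higher under tiamulin (Dusp5 0.59, Fosl2 0.39, Dusp6 0.31 and Hbegf) and 1 was higher under lefamulin (Nr4a1, -0.49; median 0.13). These became 7 and 3 without tiamulin 2, 2 and 0 without lefamulin 1 or 2, and 3 and 0 without lefamulin 3, so that Nr4a1 was not called without any 1 lefamulin library. Among 42 interferon-induced genes, Parp14 (0.42) was higher under tiamulin and the antiviral GTPase Mx1 (-0.63) was higher under lefamulin (median 0.15), and neither was called without lefamulin 2 or 3, nor Parp14 without lefamulin 1 or tiamulin 1. The peptide-loading gene Tapbp (0.53) and H2-T23 (0.35) were higher under tiamulin among 26 antigen presentation genes, and Calr was higher under lefamulin (median 0.05). H2-T23 was not called without any 1 lefamulin library, Tapbp was not called without lefamulin 1, and Calr was not called without lefamulin 3. Counts of H2 genes are uncertain, since class I genes are similar in sequence.

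Cldn4, a tight junction claudin, rose under both drugs. Tiamulin libraries had 3020, 3422 and 2969 counts, lefamulin libraries 2324, 2356 and 2403, and control libraries 1181, 1094 and 1215. The tiamulin libraries were highest (log2 fold change 0.39, adjusted p = 0.00747, edgeR quasi-likelihood test), but the call was lost without lefamulin 2 (adjusted p = 0.0588). With the polarity gene Pard6b (0.36), it made 2 of 18 tight junction genes higher under tiamulin (median 0.16), and Pard6b lost its call without any 1 control or lefamulin library. Of 9 genes named in the text of the study, which chose them on these samples, Cldn4 was higher under tiamulin and Abca1 was higher under lefamulin (median 0.10). The other 7 did not pass the test, with 95% intervals of -0.64 to 0.75 for Madcam1, -0.97 to 0.59 for Itgb7, -1.36 to 0.70 for Ptprc, -0.47 to 0.67 for Pecam1, -0.77 to 1.11 for Cntnap2, -0.53 to 1.00 for H2-DMb1 and -0.03 to 0.61 for H2-Bl. Of these, H2-Bl, Itgb7, Madcam1, Pecam1 and H2-DMb1 had intervals that reached no further than a 2-fold difference, and those of Ptprc and Cntnap2 did.

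In metabolism and detoxification, the drugs differed in single genes, and a list with 1 or 2 called members is described by those genes alone. Cyp1a1, an aryl hydrocarbon receptor target, had 1160, 1230 and 1210 counts under lefamulin, 767, 861 and 731 under tiamulin and 590, 587 and 702 in control (log2 fold change -0.63, adjusted p = 0.00107, edgeR quasi-likelihood test). With the epoxide hydrolase Ephx1 (-0.55), it made 2 of 31 cytochrome P450 and conjugation genes higher under lefamulin, with 0 under tiamulin (median -0.0040). Membrane carriers were among the genes of lowest p in this direction: the sulfate transporter Slc26a2 (-0.83), the zinc importer Slc39a10 (-0.70) and the phosphate transporter Slc20a1 (-0.56). Of 37 other ABC transporters, Abca6 (0.38) and Abcc4 (0.34) were higher under tiamulin and Abcg2 (-0.34) was higher under lefamulin (median 0.04). Neither of the first 2 was called without lefamulin 2, Abcc4 was not called without lefamulin 1 or 3, and Abcg2 lost its call in 7 of the 9 fits leaving out 1 library. NRF2 and glutathione genes gave 3 of 50 higher under lefamulin (Sod2 -0.29, Prdx1 -0.26 and Fth1 -0.19) and 1 higher under tiamulin, Slc7a11 (median -0.05), but 0 higher under lefamulin without any 1 of the control or lefamulin libraries. Glycolysis and hypoxia genes gave 3 of 45 higher under lefamulin (Hk2 -0.34, Slc16a1 -0.28 and Ldha -0.20) and Pck2 higher under tiamulin (median -0.01). Higher under lefamulin were 6 without tiamulin 2, with 2 higher under tiamulin, but 1 without lefamulin 3 and 2 without any other lefamulin or any control library, and Ldha lost its call in 8 of the 9 fits leaving out 1 library. Cytosolic heat shock genes gave 2 of 17 higher under tiamulin (Hsp90ab1 0.20 and Hspa8 0.19) and 1 higher under lefamulin (Dnaja1, -0.29; median -0.01), none of them called without any 1 lefamulin library. A mixed list held genes named from earlier results, RGS genes among them, with no single function. Of its 9 tested genes, Rgs16 (0.35) was higher under tiamulin and Rgs1 was higher under lefamulin (median -0.47).

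**Figure D5:**
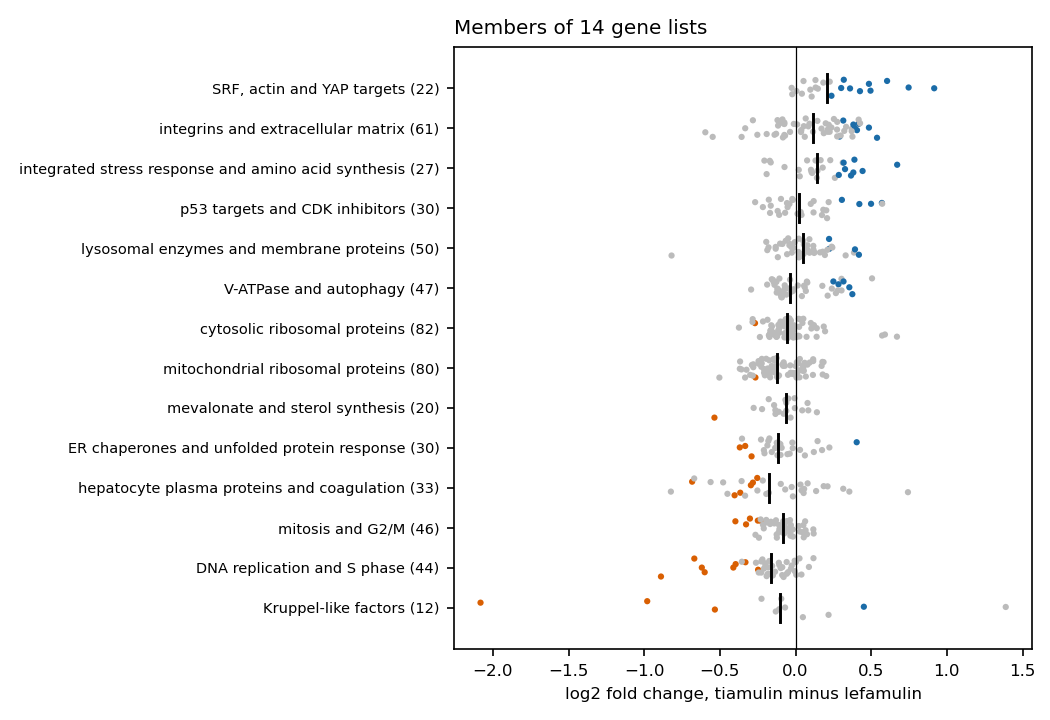
Log2 fold change of tiamulin against lefamulin (horizontal axis) for the tested members of selected gene lists, whose number stands in brackets; points are genes, coloured where the adjusted p was below 0.05, and the vertical bars are list medians. Called members of the SRF and YAP, matrix and amino acid synthesis lists lie on the tiamulin side, and those of the S phase, mitosis and plasma protein lists lie on the lefamulin side.

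The position of control differed between genes that separated the drugs. Both comparisons with control share the same 3 control libraries, so their values are only set side by side. Against control, 1900 genes (13.1%) differed under lefamulin and 2383 (16.4%) under tiamulin at an adjusted p below 0.05. Of the 413 genes higher under tiamulin, 110 differed from control under lefamulin alone, 149 under tiamulin alone, 50 under both in the same direction, 5 under both in opposite directions and 99 under neither, and the control mean lay between those of the drugs for 233. Of the 298 higher under lefamulin, these numbers were 53, 124, 41, 1 and 79, with control between the drugs for 154. Both drugs lay above control for 126 of the 413 and 49 of the 298. Over all tested genes, both drugs lay above control for 5213 of 14510. The 413 genes had a median GC content of 50.6% and the 298 one of 46.9%, against 49.2% over all tested genes. Across genes, the log2 fold change had a Spearman correlation with GC content of 0.274, which was -0.060 without tiamulin 2 and 0.054 with GC and length offsets. Genes are not independent replicates, and the part of GC content in single results was not tested.

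Other list counts also changed when tiamulin 2 was left out, where 4.93% of all tested genes were higher under tiamulin and 3.86% under lefamulin. Given as genes higher under tiamulin and genes higher under lefamulin, they became 5 and 2 for tRNA synthetases, 3 and 4 for cytosolic heat shock genes, 3 and 3 for other ABC transporters, 2 and 2 for cytochrome P450 and conjugation genes, and 2 and 5 for NRF2 and glutathione genes. Immune and junction lists gave 3 and 1 for interferon-induced genes, 4 and 2 for chemokines and cytokines, and 3 and 0 for tight junction genes. Lipid lists gave 0 and 3 for LXR targets, 2 and 1 for LDL uptake and SREBP2 control, and 0 and 0 for fatty acid oxidation. Regulator lists gave 5 and 2 for liver transcription factors, 2 and 4 for Krüppel-like factors and 4 and 1 for ARF and ARL GTPases. There were 6 and 0 for lysosomal genes, 5 and 1 for V-ATPase and autophagy genes and 0 and 2 for histones. The remaining lists gave 2 and 1 for cytosolic ribosomal proteins, 1 and 5 for mitochondrial ribosomal proteins and 1 and 1 for mitochondrial chaperones. The mixed list with RGS genes gave 2 and 0. Medians fell to 0.060 for immediate early genes, 0.049 for tight junction genes and 0.045 for LDL uptake and SREBP2 control, and changed sign for chemokines and cytokines (-0.041), other ABC transporters (-0.021), the genes named by the study (-0.045), cytosolic ribosomal proteins (0.023), the KLF2 and MEF2 programme (0.014), ARF and ARL GTPases (-0.0016), cytochrome P450 and conjugation genes (0.021) and fatty acid oxidation (0.013).

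With GC and length offsets, where 6.78% of all tested genes were higher under tiamulin and 6.39% under lefamulin, the counts of most lists were also higher. In the same order, signalling and stress lists gave 13 and 2 for the integrated stress response, 10 and 2 for p53 targets and CDK inhibitors, 6 and 2 for immediate early genes, 6 and 5 for NRF2 and glutathione genes, 2 and 4 for cytosolic heat shock genes and 2 and 3 for mitochondrial chaperones. Cell cycle lists gave 0 and 16 for S phase and 0 and 11 for mitosis. Translation lists gave 7 and 2 for tRNA synthetases and 4 and 2 for cytosolic ribosomal proteins. Matrix, junction and immune lists gave 16 and 0 for integrin and matrix genes, 5 and 0 for tight junction genes, 6 and 1 for interferon-induced genes, 5 and 1 for antigen presentation and 4 and 3 for chemokines and cytokines. Liver and metabolic lists gave 8 and 2 for liver transcription factors, 1 and 9 for plasma proteins, 2 and 3 for cytochrome P450 and conjugation genes, 3 and 4 for other ABC transporters, 4 and 6 for glycolysis and hypoxia, 0 and 4 for LXR targets, 2 and 2 for LDL uptake and SREBP2 control, 0 and 2 for fatty acid synthesis, 3 and 1 for fatty acid oxidation, 7 and 1 for lysosomal genes and 6 and 3 for V-ATPase and autophagy genes. Krüppel-like factors gave 1 and 5, the KLF2 and MEF2 programme 3 and 3, and ARF and ARL GTPases 3 and 4. The mixed list with RGS genes gave 2 and 2.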

How the data were processed

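RNA-Seq of Hepa1-6 cells was measured in 9 libraries. According to the submitters' processing notes, base calls were made with CASAVA 1.8, reads were filtered with fastp, aligned with HISAT2 2.0.5 to the mouse genome (build named as mm10) and counted per gene with featureCounts 1.5.0-p3, and DESeq2 1.20.0 was used. The authors deposited raw read counts per gene and FPKM values (fragments scaled to gene length and library total), each as a table of all 9 libraries, and the counts were the unit of the main test here. Gene positions in the deposited tables matched GRCm38 for 1435 of 52036 nuclear genes and for all 37 mitochondrial genes, so nuclear positions are given only for RefSeq promoter windows on GRCm38.p6. Library totals of the 9 samples ran from 15568887 to 18008105 counts.

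Genes were filtered with filterByExpr, scaled by TMM and fitted in edgeR 4.0.16 under R 4.3.3 (quasi-likelihood F-test, robust dispersion, group as the only term, all 9 libraries, contrast tiamulin minus lefamulin). P-values were adjusted by the Benjamini-Hochberg method over all 14510 genes. A gene was called at an adjusted p below 0.05, and was a DEG if |log2(fold change)| was also above 1. Negative log2 fold changes mark genes higher under lefamulin. Levels are CPM after TMM, as mean ± SD, and intervals are 95% intervals of the fit.

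The comparison, its members and the 39 gene lists were chosen with earlier results of these data known. By rule, every DEG was named, with the counts of all libraries for the 12 of largest change per direction with at least 1 CPM and no overlap between the drugs, and so were the 10 genes of lowest adjusted p per direction, up to 4 called members per list by lowest adjusted p, and the 9 genes the study's text names. Further called list members, the mitochondrial RNAs and the genes in the promoter search were added after their values were seen. A few called list members are counted but not reported here by name.

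The alternatives were DESeq2 size factors in edgeR, DESeq2 1.42.0, the 6 drug libraries alone, no filter or at least 10 counts in every library, the replicate number as a block, offsets for GC content and gene length, limma 3.58.1 on log2(FPKM + 1) and log2(FPKM + 0.1) of those genes that exceeded an FPKM of 1 in 3 or more libraries, edgeR's glmTreat and leaving out each library. Leaving out tiamulin 2 together with the offsets was added after seeing the data. The test was also run on simulated counts with known changes, and the outcome is not reported here. All counts and FPKM columns belonged to the 9 libraries.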

Additional observations from a re-analysis of the deposited data

How the results depend on the processing

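The number of calls moved with the processing, while the number of genes with an interval within 2-fold stayed within 1.5 times of 12021. DEGs (all, higher under tiamulin, higher under lefamulin; 33, 12 and 21 as reported) numbered 18, 6 and 12 with the 6 drug libraries alone, 70, 35 and 35 with no filter on low counts, 50, 20 and 30 with GC and length offsets, 50, 22 and 28 with tiamulin 2 left out as well, 11, 4 and 7 by limma on log2(FPKM + 1), 21, 10 and 11 by limma on log2(FPKM + 0.1), and 1, 0 and 1 by glmTreat. With at least 10 counts in every library 7 DEGs were higher under tiamulin. Genes at an adjusted p below 0.05 (711, 413 and 298 as reported) numbered 1073, 629 and 444 by DESeq2, 280, 170 and 110 with the 6 drug libraries alone, 1271, 786 and 485 with no filter, 1911, 984 and 927 with the offsets, 1830, 916 and 914 with tiamulin 2 left out as well, and 461, 253 and 208 or 448, 244 and 204 by limma with the larger or the smaller pseudocount. The 6-library fit and the fits leaving out 1 library had fewer samples. For the rest the cause was not tested.

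Leaving out 1 library gave 14 to 46 DEGs (5 to 22 higher under tiamulin and 9 to 25 higher under lefamulin) and 204 to 1309 genes at an adjusted p below 0.05 (1.2e+02 to 734 and 78 to 575). The lowest values came without a lefamulin library and most of the highest without tiamulin 2.

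Replicate numbers did not pair the libraries: deviations of equally numbered lefamulin and tiamulin libraries correlated at 0.051, -0.055 and -0.091. With the replicate number as a block there were 18 DEGs (7 and 11) and 263 genes at an adjusted p below 0.05 (165 and 98), and with the block and the offsets together 1605 (839 and 766).

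Genes that did not pass the test changed sign in some fits. Leaving out 1 library gave log2 fold changes of -0.29 to 0.38 for Madcam1, -0.15 to 0.30 for Pecam1, -0.051 to 0.32 for Cntnap2 and -0.43 to 0.032 for Itgb7. With tiamulin 2 left out and the offsets, Pecam1 had -0.15 and Cntnap2 had -0.087. Counts of about 10 per library limit what can be said of the rarest DEGs.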
